A study of Mus musculus with 12 samples.

Results

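Intestinal iron absorption was followed through 8 genes: Cybrd1, Slc11a2, Fth1, Ftl1, Slc40a1, Heph, Tfrc and Hmox1. They were found on the array as the probes whose RefSeq accession maps to 1 of these symbols, which gave 16 probes. All 8 genes passed the filter on detection and are among the 27565 genes tested, out of 46522 genes and unnamed probes before that filter. The tissue was the jejunum of male mice, profiled on 12 arrays with 1 mouse per array and 3 mice in each of 4 groups. The groups were IAP knockout (Akp3-/-) on IIAEK, IAP knockout on vehicle, wild type on IIAEK and wild type on vehicle. They are abbreviated KO IIAEK, KO vehicle, WT IIAEK and WT vehicle. IIAEK, a peptide named by the single-letter codes of its residues (isoleucine at both of the first positions, then alanine, glutamate and lysine), was given by mouth at 600 mg/kg once a day for 14 d from 7 weeks of age. The labels differ on this duration: titles and protocol count it in days, which is followed here, and the source name of IIAEK mice counts it in weeks. The vehicle was 5 g/L carboxymethylcellulose sodium salt. All mice were fasted for 8 h before the tissue was taken. Akp3 codes for an intestinal alkaline phosphatase, and the labels name no tissue or promoter that would limit the knockout. The labels do not tie mice of different groups to each other. The design asks whether IIAEK changes these genes, whether loss of Akp3 does, and whether the effect of IIAEK differs between the genotypes.

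Dietary iron enters the enterocyte of the proximal small intestine at the brush border, where it is reduced and carried in as ferrous iron. Inside the cell it is either held in ferritin or passed across the basolateral membrane by ferroportin, with oxidation to the ferric form that transferrin carries in blood. Several of these transcripts carry iron-responsive elements that bind regulatory proteins, which stabilise the transferrin receptor mRNA and block ferritin translation when the cell lacks iron, and hypoxia-inducible factors drive transcription of the uptake genes in the duodenum.

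RefSeq promoter sequences (build GRCm38.p6) were at hand for 4 of the 8 genes, Cybrd1, Ftl1, Fth1 and Tfrc. They are shown because iron uptake and ferritin genes have been studied as targets of hypoxia and oxidative stress factors, whose own genes are among those measured. Each runs from 250 bases before to 10 bases after the annotated start. Capitals mark the hypoxia response element core, searched as ACGTG and GCGTG on both strands, so that a match on the minus strand reads as its reverse complement. Fth1 and Tfrc each have a pair of annotated starts, and the later start of Fth1 and the first start of Tfrc are shown.
Cybrd1, chr2:71117804-71118063, plus strand: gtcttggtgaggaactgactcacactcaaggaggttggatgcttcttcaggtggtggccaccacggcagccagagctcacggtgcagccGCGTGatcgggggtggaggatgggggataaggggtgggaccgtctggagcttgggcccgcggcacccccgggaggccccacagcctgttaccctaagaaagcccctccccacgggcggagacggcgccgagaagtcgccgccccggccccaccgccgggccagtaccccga
Ftl1, chr7:45459877-45460136, minus strand: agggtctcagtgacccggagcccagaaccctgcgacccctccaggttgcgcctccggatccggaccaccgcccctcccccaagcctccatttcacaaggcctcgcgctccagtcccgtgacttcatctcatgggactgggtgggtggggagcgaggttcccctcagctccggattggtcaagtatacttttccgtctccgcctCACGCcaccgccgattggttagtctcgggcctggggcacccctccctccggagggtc
Fth1, chr19:9982396-9982655, plus strand: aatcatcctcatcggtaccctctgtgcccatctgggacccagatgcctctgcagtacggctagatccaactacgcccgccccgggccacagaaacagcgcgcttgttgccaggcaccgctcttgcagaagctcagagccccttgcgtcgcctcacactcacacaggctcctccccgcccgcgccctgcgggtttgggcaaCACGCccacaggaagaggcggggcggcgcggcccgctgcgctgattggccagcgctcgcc
Tfrc, chr16:32608646-32608905, plus strand: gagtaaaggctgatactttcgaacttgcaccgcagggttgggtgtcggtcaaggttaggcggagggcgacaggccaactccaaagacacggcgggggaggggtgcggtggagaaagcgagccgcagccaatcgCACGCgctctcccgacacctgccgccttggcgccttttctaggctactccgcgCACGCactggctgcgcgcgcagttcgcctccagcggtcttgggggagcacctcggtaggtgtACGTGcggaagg

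Cybrd1 held 1 match to GCGTG on the plus strand at -161 to -157 from the start. Ftl1 held 1 match on the minus strand at -47 to -43, and the later start of Fth1 had 1 on the minus strand at -50 to -46, while the window of the other Fth1 start held 0 matches to either core. In the first Tfrc promoter ACGTG lay on the plus strand at -2 to 3, and GCGTG on the minus strand at -117 to -113 and at -64 to -60. The second Tfrc window held ACGTG at -228 to -224 and GCGTG at -134 to -130 and at -42 to -38, all on the plus strand. The Tfrc windows overlap, and the ACGTG of the second is the same site as that of the first. The antioxidant response element core, searched as TGACNNNGC on both strands, was in none of the 6 windows of the 4 genes. Over all 32851 promoter windows of 300 bases in the table, 43.8% held ACGTG or GCGTG and 12.4% held TGACNNNGC, and the motifs do not overlap each other in these windows.

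Across the 12 arrays the 75th percentile of the signal was between 575 and 815, and the share of spots well above background ran from 59.99% to 67.1%. Akp3 was not well above background on any of the 6 KO arrays, and on the WT arrays it was so on all 3 of WT IIAEK and on 2 of 3 of WT vehicle, all but replicate 3. That array stood at -6.42, within the KO values of -7.33 to -5.96. A second Akp3 probe was well above background on 2 of 3 arrays of WT IIAEK and on 0 of WT vehicle and of both KO groups. The detection filter was passed by 12 of 12 enterocyte markers, 7 of 7 markers of the proximal and 8 of 8 of the distal small intestine. A further listed proximal marker had no named probe. Some arrays stood apart in other markers. The 10 exocrine pancreas genes averaged 4.0 above their mean over all arrays (log2) in KO vehicle replicate 3 and 8.33 in WT IIAEK replicate 3, whereas the other 10 arrays lay between -2.70 and 1.03. The 8 distal genes were at -0.53 and -0.86 in WT IIAEK replicates 2 and 3, against -0.15 to 0.57 on the other arrays. The 10 B and plasma cell genes spanned -1.72 to -0.96 in KO IIAEK and 1.12 to 1.73 in KO vehicle, and -1.05 to 1.79 in WT IIAEK and -1.64 to 1.34 in WT vehicle. Smooth muscle genes spanned -0.34 to 0.26 in KO IIAEK, -0.19 to 0.27 in KO vehicle, -0.11 to 0.96 in WT IIAEK and -0.75 to -0.17 in WT vehicle, and the 6 adipose genes -2.38 to 1.5 over all arrays. The part of these cells in the members' levels was not tested. Slide 1 held replicate 1 of both WT groups and replicates 1 and 2 of both KO groups, and slide 2, which was also another scan, held the rest. In a whole-tissue sample, a lower level from fewer cells of a type and from less RNA per cell cannot be told apart.

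No member passed the threshold of 0.05 on the Benjamini-Hochberg adjusted p of limma in any of the 7 comparisons fitted. The smallest adjusted p of a member was 0.322. A level is given in log2 with the array's 75th percentile at 0, from the brightest probe of a gene, and ± is the SD over the 3 arrays of a group. A range in brackets after a change is its 95% confidence interval. Levels of different genes come from different probes and are not compared with each other.

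**Figure D1:**
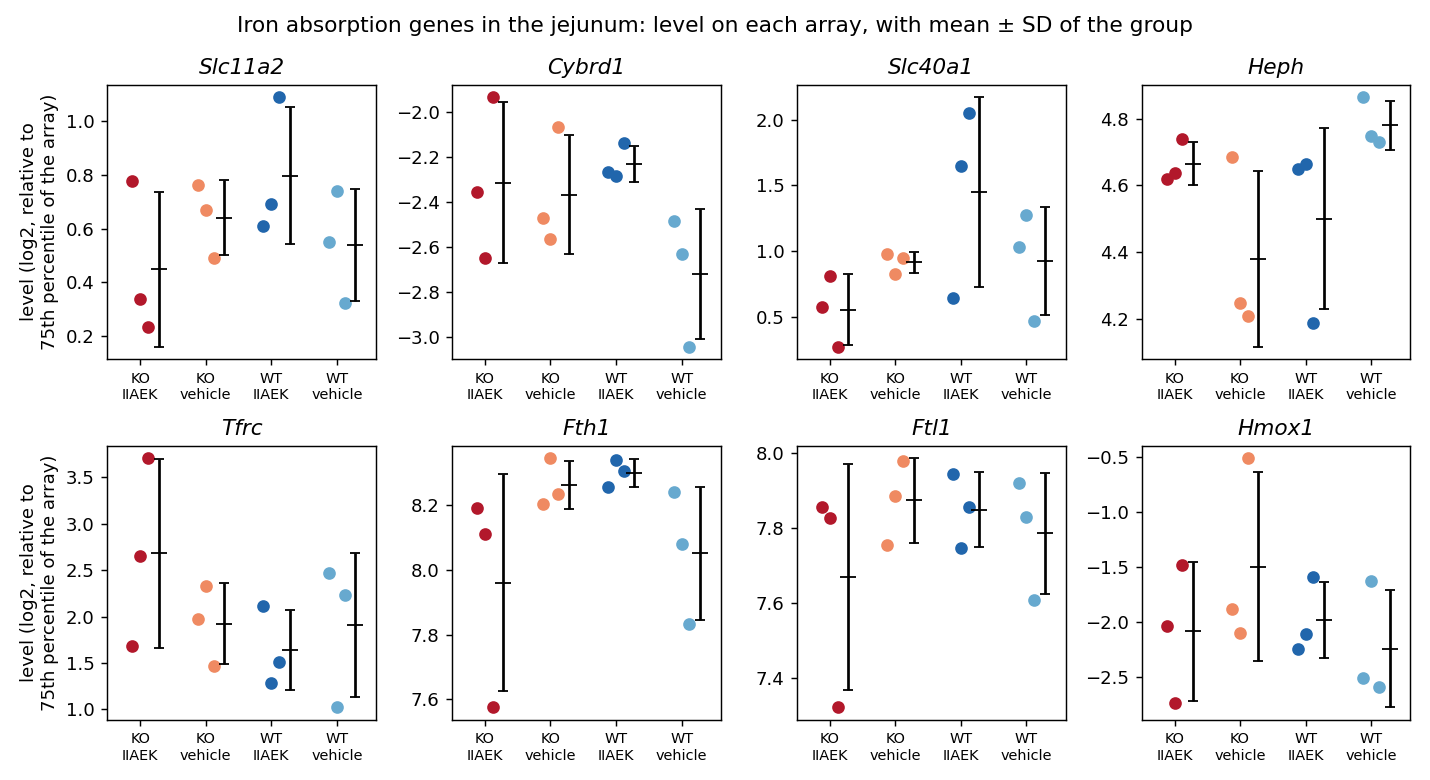
Level of each of the 8 genes on the 12 arrays (log2, with the array's 75th percentile at 0). Points are arrays, in columns for KO IIAEK, KO vehicle, WT IIAEK and WT vehicle, and the bars give the mean ± SD of 3 arrays. All groups overlap for Slc11a2, Tfrc, Ftl1 and Hmox1, while some groups do not overlap for Cybrd1, Fth1, Slc40a1 and Heph. Tfrc, Fth1 and Ftl1 each have 1 KO IIAEK array apart from the other arrays.

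Cybrd1, the ferric reductase of the brush border (Dcytb), was the member nearest to a change on IIAEK in WT. Its level was -2.36, -2.65 and -1.93 in KO IIAEK (mean -2.31 ± 0.36) and -2.47, -2.57 and -2.06 in KO vehicle (-2.37 ± 0.27). It was -2.27, -2.28 and -2.14 in WT IIAEK (-2.23 ± 0.08) and -2.49, -2.63 and -3.04 in WT vehicle (-2.72 ± 0.29). All 3 WT IIAEK arrays lay above all 3 WT vehicle arrays, whereas the KO groups overlapped each other and each neighbour in the order of means. In WT, IIAEK differed from vehicle by 0.49 (SE 0.21, 95% confidence interval 0.03 to 0.96, 1.41-fold), with an unadjusted p of 0.0405 and a limma adjusted p of 0.375. This difference was 0.22 within slide 1 (1 array against 1), 0.63 within slide 2 (2 against 2) and 0.33 without WT vehicle replicate 3. In KO, IIAEK differed from vehicle by 0.05 (-0.41 to 0.52). The second Cybrd1 probe was not well above background on any array and gives no further value.

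Slc11a2, the ferrous iron transporter DMT1 of the apical membrane, spanned 0.23 to 1.09 over all arrays. It was 0.78, 0.34 and 0.23 in KO IIAEK (0.45 ± 0.29) and 0.76, 0.67 and 0.49 in KO vehicle (0.64 ± 0.14). In WT IIAEK it was 0.61, 0.69 and 1.09 (0.80 ± 0.26), against 0.55, 0.74 and 0.32 in WT vehicle (0.54 ± 0.21). The highest value was on WT IIAEK replicate 3 and the lowest on KO IIAEK replicate 3, and every neighbouring pair of groups in the order of means overlapped. KO differed from WT on IIAEK by -0.35 (SE 0.19, -0.76 to 0.07), with a limma adjusted p of 0.66. That difference was -0.05 within slide 1, -0.66 within slide 2 and -0.20 without WT IIAEK replicate 3. IIAEK differed from vehicle by -0.19 (-0.61 to 0.22) in KO and by 0.26 (-0.16 to 0.68) in WT. The 3 other Slc11a2 probes gave -0.32, -0.34 and 0.05 for KO over WT on IIAEK, so 1 of them had the other sign.

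Ferritin stores iron as a shell of heavy chains, which oxidise iron, and light chains, which help the mineral core to form. Fth1, the heavy chain, was 8.19, 8.11 and 7.57 in KO IIAEK (7.96 ± 0.34) and 8.20, 8.35 and 8.23 in KO vehicle (8.26 ± 0.07). It was 8.26, 8.34 and 8.30 in WT IIAEK (8.30 ± 0.04) and 8.24, 8.08 and 7.83 in WT vehicle (8.05 ± 0.21). All 3 KO IIAEK arrays lay below all 3 KO vehicle arrays and all 3 WT IIAEK arrays lay above all 3 WT vehicle arrays, by little in both cases, and KO IIAEK replicate 3 and WT vehicle replicate 3 were the lowest arrays. The effect of IIAEK was -0.30 (-0.68 to 0.08) in KO and 0.25 (-0.13 to 0.63) in WT. The interaction, the effect in KO minus that in WT, was -0.55 (SE 0.25, -1.09 to -0.01), with an unadjusted p of 0.0457 and a limma adjusted p of 0.327. It was -0.14 within slide 1, -1.03 within slide 2 and -0.36 without KO IIAEK replicate 3, and the effect in KO was -0.11 without that array.

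Ftl1, the light chain, was 7.86, 7.83 and 7.32 in KO IIAEK (7.67 ± 0.30) and 7.76, 7.89 and 7.98 in KO vehicle (7.87 ± 0.11). In WT IIAEK it was 7.94, 7.75 and 7.86 (7.85 ± 0.10), against 7.92, 7.83 and 7.61 in WT vehicle (7.79 ± 0.16). KO IIAEK replicate 3 was again the lowest array, and the groups overlapped. IIAEK differed from vehicle by -0.20 (-0.57 to 0.16) in KO and by 0.06 (-0.30 to 0.43) in WT, and the interaction was -0.27 (-0.78 to 0.25, limma adjusted p = 0.578). Without KO IIAEK replicate 3 the effect in KO was -0.03. The other Ftl1 probe gave -0.27 for the interaction as well.

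Slc40a1, ferroportin, exports iron from the enterocyte across the basolateral membrane and is also abundant in macrophages. Its level was 0.57, 0.81 and 0.27 in KO IIAEK (0.55 ± 0.27) and 0.97, 0.82 and 0.95 in KO vehicle (0.91 ± 0.08). It was 0.64, 1.65 and 2.05 in WT IIAEK (1.45 ± 0.72) and 1.03, 1.27 and 0.47 in WT vehicle (0.93 ± 0.41). The highest values were on WT IIAEK replicates 2 and 3, while WT IIAEK replicate 1 lay within the range of KO IIAEK, and the KO IIAEK arrays were just below those of KO vehicle. KO differed from WT on IIAEK by -0.89 (SE 0.32, -1.59 to -0.19, 1.86-fold), with an unadjusted p of 0.0168 and a limma adjusted p of 0.647. Within slide 1, which holds WT IIAEK replicate 1, the difference was 0.05 (2 arrays against 1), and within slide 2 it was -1.58 (1 against 2). It was -0.59 without WT IIAEK replicate 3 and -1.30 without WT IIAEK replicate 1. On vehicle KO differed from WT by -0.01 (-0.71 to 0.69).

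The effect of IIAEK on Slc40a1 was -0.36 (-1.06 to 0.34) in KO and 0.52 (-0.18 to 1.22) in WT. The difference between these effects was -0.88 (-1.87 to 0.11, limma adjusted p = 0.365), and it was 0.18 within slide 1 and -1.65 within slide 2. The 13 macrophage markers tested, of 14 listed, averaged -0.25 to 0.08 above their overall mean (log2) in KO IIAEK, 0.01 to 0.23 in KO vehicle, -0.18 to 0.25 in WT IIAEK and -0.16 to 0.05 in WT vehicle. WT IIAEK replicate 3, with the highest Slc40a1, stood at -0.03 in these markers. The same array was the highest in pancreas and smooth muscle genes (0.96 for the 10 smooth muscle genes) and the lowest in distal genes. The 7 proximal genes tested, Pdx1 among them, stood at 0.14 and 0.25 in WT IIAEK replicates 2 and 3 and at -0.02 in replicate 1. They spanned -0.28 to 0.10 in KO IIAEK, -0.21 to 0.20 in WT vehicle and lay within 0.06 of 0 in KO vehicle. For IIAEK over vehicle in WT, 3 of the 7 were above 0 and their median change was -0.054. That comparison also holds WT IIAEK replicate 1, so it does not show how many of the 7 were higher on WT IIAEK replicates 2 and 3. Pdx1 had its highest levels on those arrays, -3.31 and -2.23. The part of these marker genes in the Slc40a1 level was not tested.

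Heph, hephaestin, is the ferroxidase that works beside ferroportin. It was 4.62, 4.64 and 4.74 in KO IIAEK (4.67 ± 0.06) and 4.68, 4.25 and 4.21 in KO vehicle (4.38 ± 0.26). In WT IIAEK it was 4.65, 4.66 and 4.19 (4.50 ± 0.27), against 4.86, 4.75 and 4.73 in WT vehicle (4.78 ± 0.07). WT vehicle was the highest group, with all 3 arrays above all KO vehicle and all WT IIAEK arrays, while KO vehicle and WT IIAEK overlapped. KO differed from WT on vehicle by -0.40 (SE 0.17, -0.77 to -0.03, 1.32-fold), with an unadjusted p of 0.0381 and a limma adjusted p of 0.435, and by -0.40 within slide 1 and -0.53 within slide 2. IIAEK differed from vehicle by 0.29 (-0.09 to 0.66) in KO and by -0.28 (-0.65 to 0.09) in WT. The interaction was 0.57 (SE 0.24, 0.04 to 1.10), with an unadjusted p of 0.0383 and a limma adjusted p of 0.322, with 0.38 from the arrays of slide 1 and 0.84 from those of slide 2. The 2 other Heph probes gave 0.68 and 0.60 for the interaction, and -0.34 and -0.46 for KO over WT on vehicle.

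Tfrc, the transferrin receptor that takes up iron from blood at the basolateral side and marks dividing cells, had the widest range of the 8 genes, 1.02 to 3.71. It was 1.68, 2.65 and 3.71 in KO IIAEK (2.68 ± 1.01) and 1.97, 2.33 and 1.47 in KO vehicle (1.92 ± 0.44). It was 2.12, 1.28 and 1.51 in WT IIAEK (1.64 ± 0.43) and 2.47, 1.02 and 2.23 in WT vehicle (1.91 ± 0.77). KO IIAEK replicate 3 was the highest array and all groups overlapped. KO differed from WT on IIAEK by 1.04 (SE 0.50, -0.05 to 2.13, 2.06-fold), with an unadjusted p of 0.0588 and a limma adjusted p of 0.647. The difference was 0.05 within slide 1 and 2.31 within slide 2, where the KO group is replicate 3 alone, and 0.53 without that array. The other probe gave 0.77 for the same comparison. Crypt and proliferation genes, 12 tested of 13 listed, averaged -0.01 to 0.22 above their overall mean in KO IIAEK and -0.08 to 0.35 in WT IIAEK, and stood at 0.05 in KO IIAEK replicate 3.

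Hmox1, the inducible heme oxygenase, releases iron from heme and is also a gene of macrophages that clear red cells. It was -2.04, -2.74 and -1.48 in KO IIAEK (-2.08 ± 0.63) and -1.88, -2.10 and -0.51 in KO vehicle (-1.50 ± 0.86). It was -2.24, -2.11 and -1.59 in WT IIAEK (-1.98 ± 0.35) and -2.51, -1.63 and -2.59 in WT vehicle (-2.24 ± 0.53). KO vehicle replicate 3 was the highest array and the groups overlapped. KO differed from WT on vehicle by 0.75 (SE 0.44, -0.21 to 1.71, limma adjusted p = 0.5). That difference was 0.52 within slide 1, 1.60 within slide 2, where KO vehicle is replicate 3 alone, and 1.01 with slide as a block. It was 0.25 without KO vehicle replicate 3. That array also had the highest mean of the 4 erythroid and blood genes tested of 9 listed, 2.41 above their overall mean, and the second highest of pancreas genes. The other KO vehicle arrays stood at -0.10 and -1.46 in the erythroid genes, and the ranges were -1.05 to -0.58 in KO IIAEK, -0.46 to 0.14 in WT IIAEK and -0.42 to 1.40 in WT vehicle. The part of such cells in its Hmox1 level was not tested. The interaction for Hmox1 was -0.85 (-2.21 to 0.51, limma adjusted p = 0.498), and -0.36 without KO vehicle replicate 3.

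Within each gene the 4 group means were put in order, and the gap between neighbours was set against the pooled SD of the arrays. Of the 24 gaps 4 were wider than that SD. They were KO vehicle over WT vehicle for Cybrd1 (gap 0.35, SD 0.27) and for Fth1 (0.21, SD 0.20), KO IIAEK over KO vehicle for Tfrc (0.76, SD 0.71), and WT IIAEK over WT vehicle for Slc40a1 (0.52, SD 0.44). For Slc11a2, Heph, Ftl1 and Hmox1 no neighbouring groups differed by more than their spread. The arrays of neighbours did not overlap in 1 of the 24 cases, KO IIAEK and KO vehicle for Slc40a1. Groups further apart in the order were not counted, and some of them did not overlap either. Among these were WT vehicle and KO vehicle for Heph (KO over WT -0.40, pooled SD 0.20). The same held for WT IIAEK and WT vehicle for Cybrd1 and Fth1, and for both KO groups for Fth1. Gaps and overlaps were not counted over all genes, so these counts do not show whether the members stand out.

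**Figure D2:**
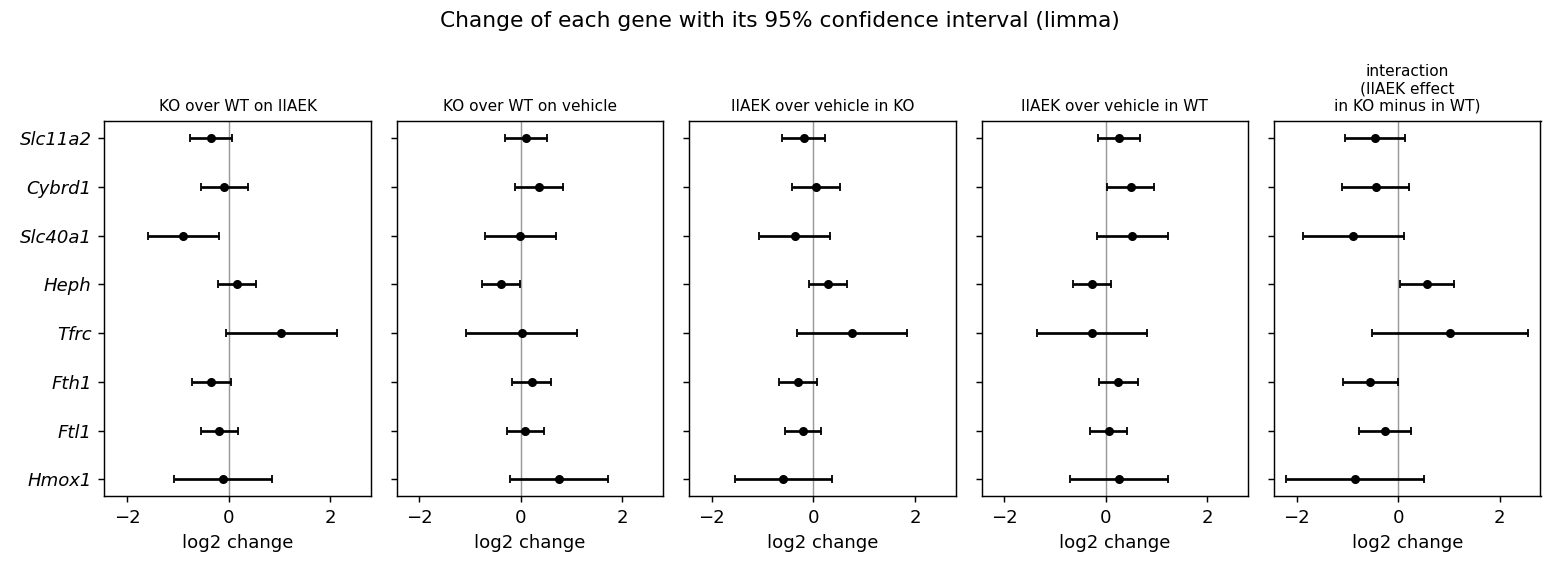
Log2 change of each gene with its 95% confidence interval (limma) in 5 comparisons, from left to right KO over WT on IIAEK, KO over WT on vehicle, IIAEK over vehicle in KO, IIAEK over vehicle in WT, and the interaction. Intervals that leave out 0 are those of Slc40a1 (-0.89) in the first panel, Heph (-0.40) in the second, Cybrd1 (0.49) in the fourth, and Heph (0.57) and Fth1 (-0.55) in the last, and none of them passed after adjustment.

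Read as a group, the 8 genes were counted against all 27565 genes in each comparison, and the comparisons share groups, so their counts are not independent. In KO over WT on IIAEK 0 members passed in limma, and 0.00% of all genes did. Slc40a1 was the 1 member with an unadjusted p under 0.05, against 7.66% of all genes. The median change of the members was -0.14, with 2 of 8 above 0, against 0.021 for all genes. In KO over WT on vehicle 0 members passed in limma (0.00% of all genes), and 1, Heph, had an unadjusted p under 0.05, against 11.4% of all genes. Here the median was 0.10 with 6 of 8 above 0, and -0.035 for all genes.

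For IIAEK over vehicle in KO, limma called 0 members and 0.00% of all genes, and 0 members had an unadjusted p under 0.05, against 4.42% of all genes. The median of the members was -0.20, with 3 of 8 above 0, and that of all genes 0.0065. For IIAEK over vehicle in WT, limma called 0 members and 0.00% of all genes, and Cybrd1 alone had an unadjusted p under 0.05, against 13.0% of all genes. The median was 0.25, with 6 of 8 above 0, and -0.062 for all genes. It was 0.018 within slide 1 and 0.091 without WT IIAEK replicate 3. Only Heph and Tfrc were below 0 in WT, and with Cybrd1 they were the 3 members above 0 in KO.

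In the interaction limma called 0 members and 0.00% of all genes, and 2 members, Heph and Fth1, had an unadjusted p under 0.05, against 15.1% of all genes. The members' median was -0.44, with 2 of 8 above 0, Heph and Tfrc, and that of all genes was 0.057. That median was -0.069 in slide 1 and -0.68 in slide 2. Averaged over both treatments, KO over WT had a member median of -0.06 and 0 members at an adjusted p or at an unadjusted p under 0.05. In limma 1 gene of all passed there (0.00363%), and 5.37% had an unadjusted p under 0.05. That gene, Glrp1, named after its values were seen, differed by -2.29 with an adjusted p of 0.00886. Averaged over both genotypes, IIAEK over vehicle had a member median of 0.02, with 0 members at an adjusted p (0.00% of all genes) or at an unadjusted p under 0.05 (3.40% of all genes). In these averages the members lay between -0.45 (Slc40a1) and 0.53 (Tfrc) for KO over WT and between -0.16 (Hmox1) and 0.27 (Cybrd1) for IIAEK over vehicle.

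Pearson correlations between members differed between the slides, in both directions. For Slc11a2 with Hmox1 r was 0.96 within slide 1 and 0.06 within slide 2, and for Slc11a2 with Slc40a1 it was -0.19 and 0.97. Over the 12 arrays, 28 pairs of members were compared, and 0 correlations had an adjusted p under 0.05, by Pearson or by Spearman, with 100000 permutations, whereas 9 had an unadjusted Pearson p under 0.05. Pairs of other genes were not counted in this way, so the share over all genes is not known. Fth1 and Ftl1, the ferritin chains, had a Pearson r of 0.87 (permutation p = 0.003, adjusted p = 0.067) and a Spearman rho of 0.52 (permutation p = 0.089, adjusted p = 0.416). Without WT vehicle replicate 3 and KO IIAEK replicate 3, the arrays farthest from the median of Fth1, r was 0.08, so the value over all arrays rests in large part on those. It was 0.63 without KO IIAEK replicate 3 alone and 0.88 with group means removed. Within slide 1, which holds neither array, r was 0.48, and within slide 2 it was 0.87, with 6 arrays each.

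Slc11a2 and Slc40a1, the apical importer and the basolateral exporter, had an r of 0.75 (permutation p = 0.005, adjusted p = 0.067) and a rho of 0.61 (permutation p = 0.041, adjusted p = 0.286). Their r was 0.38 without WT IIAEK replicate 3 and KO IIAEK replicate 3, -0.19 within slide 1 and 0.97 within slide 2, so the relation did not hold within both slides. Slc11a2 and Tfrc, apical and basolateral uptake, had an r of -0.69 (permutation p = 0.014, adjusted p = 0.098) and a rho of -0.64 (permutation p = 0.030, adjusted p = 0.286), with -0.55 without the same arrays, -0.88 within slide 1 and -0.70 within slide 2. Tfrc ran against both ferritin chains over all arrays, with r = -0.64 for Fth1 (permutation p = 0.033, adjusted p = 0.130; rho -0.26, permutation p = 0.416, adjusted p = 0.731) and r = -0.61 for Ftl1 (permutation p = 0.048, adjusted p = 0.150; rho -0.18, permutation p = 0.572, adjusted p = 0.731). Without WT vehicle replicate 2 and KO IIAEK replicate 3 these were -0.38 and -0.03. They were -0.09 and 0.20 within slide 1 and -0.88 and -0.90 within slide 2. Cybrd1 and Hmox1 had r = 0.67 (permutation p = 0.019, adjusted p = 0.103) and rho = 0.70 (permutation p = 0.014, adjusted p = 0.286), with 0.63 without WT vehicle replicate 3 and KO IIAEK replicate 3, 0.46 within slide 1 and 0.71 within slide 2. Slc11a2 and Fth1 had r = 0.69 (permutation p = 0.012, adjusted p = 0.098), 0.46 within slide 1 and 0.78 within slide 2. For Slc40a1 with Tfrc r was -0.66 (permutation p = 0.022, adjusted p = 0.103), 0.51 within slide 1 and -0.74 within slide 2. For Slc40a1 with Fth1 it was 0.61 (permutation p = 0.037, adjusted p = 0.130), 0.06 within slide 1 and 0.88 within slide 2.

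**Figure D3:**
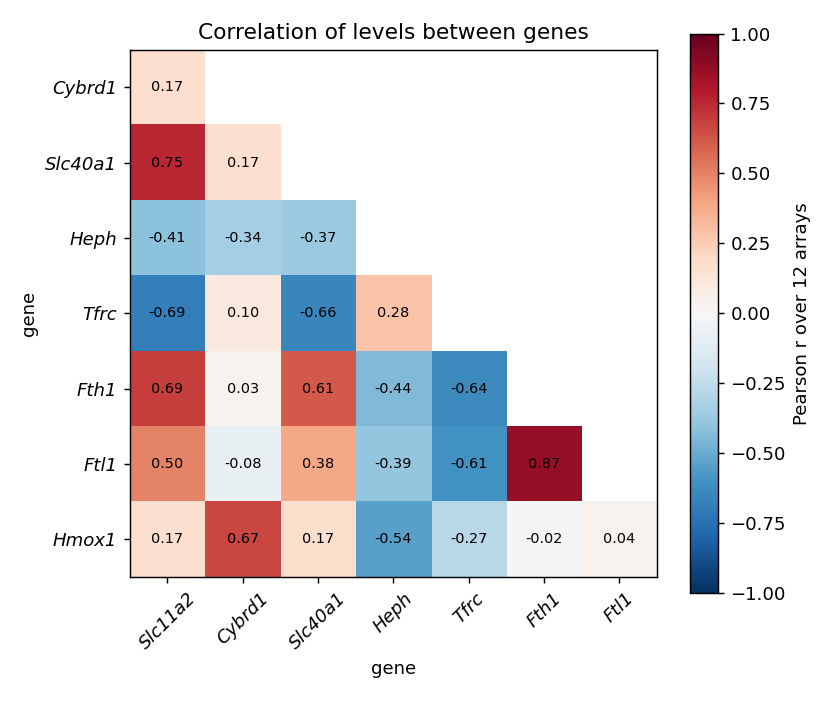
Pearson r between the levels of each pair of the 8 genes over 12 arrays, printed in each square, with red for positive and blue for negative values. Fth1 with Ftl1 (0.87) and Slc11a2 with Slc40a1 (0.75) are the highest, and Slc11a2 with Tfrc (-0.69) is the lowest.

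For each member the characterised genes whose level was most like it over the 12 arrays were taken as the 2 of highest Pearson r among 14757. As the highest of so many, these values are a description. For Slc40a1 they were Pdx1 (0.93) and Chst12 (0.87), and for Slc11a2 they were Zfp46 (0.96) and Bag3 (0.95). Gyg (0.91) and Msrb3 (0.90) were nearest to Cybrd1, and H2bc4 (0.97) and Arfgef1 (0.96) to Heph. Chchd10 (0.94) and St3gal5 (0.94) were nearest to Fth1, Gpd1 (0.91) and Slc25a3 (0.89) to Ftl1, Rnu3b1 (0.96) and Haus1 (0.95) to Tfrc, and Cyyr1 (0.95) and Mcf2l (0.91) to Hmox1.

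Pdx1, a transcription factor of the duodenum and pancreas, is also 1 of the proximal markers. Its level was -4.75, -5.50 and -5.99 in KO IIAEK and -3.95, -4.55 and -4.11 in KO vehicle. It was -4.81, -3.31 and -2.23 in WT IIAEK and -4.76, -4.02 and -5.79 in WT vehicle. Its signal was low, well above background on 1 array of KO IIAEK, 3 of KO vehicle, 3 of WT IIAEK and 2 of WT vehicle. The highest arrays, WT IIAEK replicates 2 and 3, are those with the highest Slc40a1, and since Pdx1 was picked for its likeness to Slc40a1 this restates the choice. On the 3 arrays where it was not well above background its values have no order. Pdx1 had r = 0.89 with Slc11a2 (0.83 within slide 1 and 0.95 within slide 2). For Slc40a1 its r of 0.93 was 0.31 within slide 1 and 0.98 within slide 2, and for Tfrc its r of -0.74 was -0.56 and -0.74. For the other members its r was 0.69 (Fth1), 0.46 (Ftl1), 0.36 (Hmox1), 0.31 (Cybrd1) and -0.51 (Heph). WT IIAEK replicate 3 was also the highest array in pancreas markers, whose part in the Pdx1 level was not tested.

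**Figure D4:**
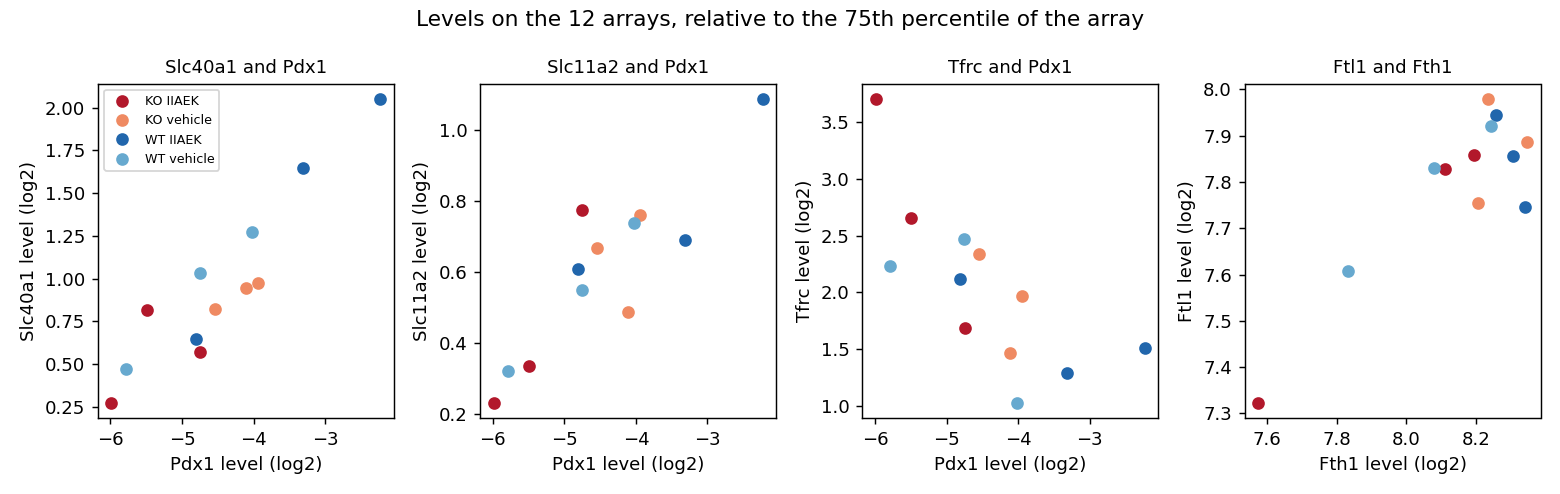
Levels (log2) of Slc40a1, Slc11a2 and Tfrc against Pdx1, and of Ftl1 against Fth1. Each point is 1 of 12 arrays, coloured by group. Slc40a1 is highest on the 2 WT IIAEK arrays with the most Pdx1, and 1 KO IIAEK array stands apart at the low end of Fth1 and Ftl1.

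Of 40 other genes of iron handling, 33 were tested, and 0 passed in limma in any comparison. Steap4, Tfr2, Hjv, Hamp, Hephl1, Ftmt and Hpx were not well above background on all 3 arrays of any group; Hamp, hepcidin, is made chiefly in liver. In KO over WT on IIAEK 1 of the 33 had an unadjusted p under 0.05, against 7.66% of all genes, namely Flvcr2, a transporter related to Flvcr1, which has been described as a heme exporter, at 1.55 (SE 0.63, limma adjusted p = 0.647). In KO over WT on vehicle 3 of the 33 did, against 11.4% of all genes, namely Slc48a1, which carries heme out of lysosomes, at 0.43, Trf, transferrin, at 0.41 and Ireb2, an iron regulatory protein that binds the iron-responsive elements, at -0.49. In KO on IIAEK against vehicle 0 did (4.42% of all genes), and Ireb2 differed by 0.36. In WT on IIAEK 5 of the 33 did, 1 above 0 and 4 below, a share near the 13.0% of all genes, among them Flvcr1 at -0.99, Bmp6, a signal of iron stores, at 0.68, Ireb2 at -0.52 and Flvcr2 at -1.53. In the interaction 4 of the 33 did, against 15.1% of all genes, namely Ireb2 at 0.88, Blvra, biliverdin reductase, which acts after heme oxygenase, at 0.61, Flvcr2 at 2.10 and Bmp6 at -0.93. Ireb2 averaged 3.52 in KO IIAEK, 3.17 in KO vehicle, 3.14 in WT IIAEK and 3.66 in WT vehicle. In both averaged comparisons 0 of the 33 had an unadjusted p under 0.05, against 5.37% of all genes for KO over WT and 3.40% for IIAEK over vehicle.

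Regulators of these genes, together with other targets of those regulators, were followed in 2 lists. These held 18 genes of the hypoxia pathway and its targets and 16 of the NRF2 and BACH1 pathways and their targets. All were tested, and 0 passed in limma in any comparison. Epas1, the hypoxia-inducible factor that drives Slc11a2, Cybrd1 and Slc40a1 in mouse duodenum, averaged 3.1 in KO IIAEK, 3.5 in KO vehicle, 3.1 in WT IIAEK and 3.2 in WT vehicle. Its IIAEK effect in KO was -0.44 (SE 0.29, limma adjusted p = 0.910). Hif1a, the related factor of most cells, averaged 2.55 in KO IIAEK, 2.35 in KO vehicle, 2.47 in WT IIAEK and 3.23 in WT vehicle. It differed by -0.88 (SE 0.20, limma adjusted p = 0.423) in KO over WT on vehicle. Ankrd37, a hypoxia-induced gene, differed by -0.71 in KO over WT on vehicle and by -0.55 on IIAEK. For IIAEK over vehicle in WT, Hif1a differed by -0.76, Bnip3, a mitophagy gene, by -1.14 and Car9, a carbonic anhydrase, by 0.58. Bach1, the repressor of Hmox1 and ferritin genes, averaged 1.86 in KO IIAEK, 1.81 in KO vehicle, 1.80 in WT IIAEK and 2.31 in WT vehicle, and differed by -0.50 (SE 0.15, limma adjusted p = 0.423) in KO over WT on vehicle. Genes of the hypoxia list with an unadjusted p under 0.05 numbered 1 of 18 in KO over WT on IIAEK (7.66% of all genes), 4 on vehicle (11.4%), 0 for IIAEK in KO (4.42%), 3 for IIAEK in WT (13.0%) and 3 in the interaction (15.1%). In KO over WT averaged over treatments they numbered 3, against 5.37% of all genes, all below 0: Ankrd37 at -0.63 (limma adjusted p = 0.515), Hif1a at -0.40 and Ero1a at -0.34. For IIAEK averaged over genotypes they numbered 0 (3.40%). Those of the NRF2 and BACH1 list numbered 1 in KO over WT on IIAEK, 3 on vehicle, 0 for IIAEK in KO, 2 for IIAEK in WT, 2 in the interaction and 0 in both averaged comparisons, of 16 genes, against the same shares of all genes.

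Of the 14 zinc and copper genes, which share carriers and metal-binding proteins with iron, all were tested and 0 passed in limma. The metallothioneins, small proteins that bind zinc and copper, had 2 members with an unadjusted p under 0.05 in KO over WT on IIAEK, Mt2 at 1.26 (SE 0.42) and Mt1 at 0.83 (SE 0.33), both with a limma adjusted p of 0.647, against 7.66% of all genes at that level. Of the 14 genes, 2 were under 0.05 in KO over WT on vehicle (11.4% of all genes), 1 in the interaction (15.1%) and 1 in KO over WT averaged over treatments (5.37%). In the other comparisons 0 were, namely IIAEK in KO (4.42% of all genes), IIAEK in WT (13.0%) and IIAEK averaged over genotypes (3.40%). Mt2 averaged 7.36 in KO IIAEK and 7.14 in KO vehicle, and 6.09 in WT IIAEK and 6.90 in WT vehicle. Atp7a, the copper exporter that supplies hephaestin, differed by -0.35 (SE 0.13, limma adjusted p = 0.423) in KO over WT on vehicle and by 0.41 in the interaction, the same signs as Heph. Of all genes, 45.5% were above 0 in KO over WT on vehicle and 54.6% in the interaction, so each of these signs was the more common. Atp7a averaged 1.23 in KO IIAEK, 1.03 in KO vehicle, 1.17 in WT IIAEK and 1.38 in WT vehicle.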

How the data were processed

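Jejunal RNA of 12 mice was labelled with Cy3 and hybridised to 1-colour Agilent 8x60K mouse arrays by the authors. Per the file headers, Feature Extraction 10.7.3.1 gave the processed signal, an intensity corrected for background and not scaled between arrays. The authors' deposited value table is in log2 units and served as an alternative. Its scaling and centring are not stated. It correlated with the values used here at r of at least 0.9997 once each probe was centred, and its column medians lay between -0.080 and 0.15.

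Non-uniform spots (0 to 4 per array) were removed, and no spot was saturated. The log2 processed signal was averaged over spots of a probe, and each array was scaled by its 75th percentile. Gene names came from RefSeq accessions, which named 32994 of 56605 probes. The brightest probe stood for a gene. Genes were tested whose probe passed the scanner software's detection call (well above background) on the 3 arrays of some group. The number of arrays limits the precision.

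Group means were fitted together with limma 3.58.1 in R 4.3.3 (8 residual and 3.37 prior degrees of freedom), two-sided, with Benjamini-Hochberg adjustment over 27565 genes and a threshold of 0.05. Marker scores are mean log2 deviations of a list's genes from their mean over all arrays. The fit was tested on simulated data. Correlations used permutation tests in scipy 1.17.1. The members and lists were chosen with earlier results of these data known. The genes named are the 8 members, up to 4 genes of smallest p per pathway list, the 2 genes most like each member, and Akp3. Glrp1 and the iron genes below detection were named outside this rule, Glrp1 after its values were seen. The percentile over probes was an alternative added after seeing the data.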

Additional observations from a re-analysis of the deposited data

How the results depend on the processing

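Results were recomputed under 25 alternatives, or 24 for the interaction and the averaged comparisons, which need all 4 groups. Of these 12 left out 1 array. In these runs 0 members passed, and the smallest member adjusted p was 0.146 (Fth1, interaction). Of 1376 member values under alternatives, 1336 moved by less than 1 SD and 40 moved by more. Of the 56 member values, 27 had the same sign in every alternative run. The number of genes passing in limma was 0 in every comparison but KO over WT averaged over treatments, where it was 1. In that average it was 2 with normexp on median signals, 4 with quantile normalization, 0 with detection on all arrays, 2 with the mean over all probes of a gene, 4 with a variance trend, and 0 to 10 without 1 array. With slide as a block it was 1 for IIAEK in WT and 1 for KO over WT on IIAEK. With only the groups compared it was 14 for IIAEK in KO, 1 for KO over WT on vehicle and 4 for KO over WT on IIAEK. Leaving out 1 array gave 0 to 1 for IIAEK in WT, 0 to 2 for KO over WT on vehicle, 0 to 2 for KO over WT on IIAEK and 0 to 1 for IIAEK averaged over genotypes. The cause of these moves was not tested.

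The median of the members for IIAEK in WT was 0.018 within slide 1 and between 0.091 and 0.31 without 1 array. For IIAEK in KO it was -0.054 within slide 1, -0.46 within slide 2 and between -0.33 and -0.097 without 1 array. For KO over WT on vehicle it was -0.067 within slide 1 and between 0.050 and 0.22 without 1 array. For the interaction it was -0.069 within slide 1, -0.68 within slide 2 and between -0.52 and -0.31 without 1 array. Within a slide a group holds 1 or 2 arrays, so no test was made there. Same-numbered arrays of different groups had deviations that correlated between -0.25 and 0.35. All arrays numbered 1 also shared slide 1, and all those numbered 3 shared slide 2. Arrays of different number were not compared in this way. With the replicate block 1 gene passed in KO over WT averaged over treatments and 0 in the other comparisons. Adding the percentile over probes, chosen after seeing the data, changed no count of passing genes. Probes near background, such as those of Pdx1 and Akp3, limit what can be read from their levels.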
